A study of Mus musculus with 12 samples.

Results

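The genes described here are 37 mouse genes of glucose uptake, glycolysis and glycogen metabolism, chosen by symbol as a list and not by a cut on their measured values. The list was made with earlier results of these data known. They comprise 2 glucose transporters, 9 enzymes from glucose to triose phosphate, 4 enzymes that control the amount of fructose bisphosphate, 10 enzymes from triose phosphate to lactate and 12 genes of glycogen synthesis and breakdown. All 37 were found among the 23337 genes counted, with Pkm under its older symbol Pkm2. They were measured by RNA-seq in 12 samples of sorted fluorescent cardiomyocytes (CMs), 3 per group.

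All mice carried a Cre-dependent fluorescent reporter at Rosa (Cas9GFP, tdTomato or mTmG) on a mixed background, and received adeno-associated virus AAV9 that expresses Cre from the cardiac troponin T promoter at a dose of 5e8 vector genomes per gram. This dose leaves a mosaic of transduced and untransduced CMs, and only fluorescent CMs were sorted. Knockout (KO) mice had both alleles of Srf, which encodes serum response factor, flanked by loxP sites (Srf F/F). Control (CTRL) mice were Srf F/+, so CTRL CMs had also been exposed to Cre and had lost 1 Srf allele. Neonatal mice were injected on postnatal day (P) 1 and their CMs taken at P14, adult mice were injected at P60 and their CMs taken at P90. Sex is not given in the labels. The 4 Y-linked genes examined summed to 201 to 259 CPM in 1 sample each of P14 CTRL, P14 KO and P90 CTRL and to at most 0.117 CPM in the rest, with 0 CPM in all P90 KO samples.

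CMs take up glucose through the transporters GLUT1 and GLUT4, trap it as glucose 6-phosphate with hexokinase, and either break it down by glycolysis or store it as glycogen. Many of these steps are carried out by isozymes encoded by separate genes, and striated muscle is known for particular forms such as GLUT4, the muscle phosphofructokinase, mutase, enolase and glycogen phosphorylase. After birth the mouse heart comes to rely mainly on fatty acids and less on glycolysis, and the mature heart favours the B form of lactate dehydrogenase.

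Total counts ranged from 9740389 to 23103460 per sample, and 3 counts corresponded to 0.140 to 0.317 CPM (CPM are counts scaled to the TMM-adjusted size of the library). Srf was at 15.7, 13.9 and 12.1 RPKM in P14 CTRL and 7.83, 6.79 and 2.37 RPKM in P14 KO, and at 17.5, 14.1 and 19.6 RPKM in P90 CTRL and 8.11, 7.12 and 6.81 RPKM in P90 KO (RPKM is CPM per kb of exon). KO lay below CTRL in every sample at each stage, and the log2 fold change was -1.30 ± 0.36 (SE, adjusted p = 0.0628 by edgeR) in neonatal and -1.23 ± 0.13 (adjusted p = 0.00347 by edgeR) in adult KO. The 8 CM markers, among them Myh6, Tnnt2 and Ryr2, summed to between 67760 and 105200 CPM in every sample. Endothelial markers summed to 180 to 417 CPM, fibroblast markers to 48.2 to 319 CPM, and smooth muscle and pericyte markers to 58.4 to 132 CPM. The endothelial, fibroblast, and smooth muscle and pericyte sums overlapped between KO and CTRL at each stage. The CM marker sum was lower in KO without overlap at each stage. At P90 it was 83680 to 88170 CPM in KO and 91850 to 105200 CPM in CTRL, and the P14 values are given below. Markers of fat, red blood cells and skeletal muscle summed to at most 2.41 CPM, macrophage markers to at most 12.2 CPM. Hbb-b1 and Hba-a1, the globin genes among the red blood cell markers, were listed at 0 in all 12 samples, so that sum rests on Alas2. The P14 CTRL replicate 2 library stood apart from its group: the chi-square of its raw counts per degree of freedom was 48.9 and 55.4 against the other P14 CTRL libraries, and every other pair within a group gave 10.3 to 26.1. P14 CTRL replicate 2 also had the lowest endothelial, fibroblast, and smooth muscle and pericyte sums of its group, at 195, 106 and 58.4 CPM. Replicates 1 and 3 had 417 and 321, 298 and 233, and 126 and 132 CPM. For the listed genes, the counts of calls, the medians and the neonatal calls that rest on P14 CTRL are therefore also given without replicate 2. For genes outside the list they are given with that sample only.

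In CTRL CMs the most abundant of the 37 mRNAs at P14 was Aldoa (aldolase A), at 2007 ± 113 RPKM (SD, n = 3), followed by Eno3 (muscle enolase) at 1856 ± 403 RPKM and Ldhb (lactate dehydrogenase B) at 1353 ± 120 RPKM. Aldoa was at 2686 ± 201 RPKM and Ldhb at 1890 ± 128 RPKM in P90 CTRL. At the other end, Aldoc, Eno2 and Eno1, which encode the brain aldolase, the neuronal enolase and the ubiquitous enolase, were below 0.5 RPKM in all 12 samples. Aldoc and Eno2 did not pass the filter on low counts in any comparison, and Eno1 did not pass in the adult comparison, so 35 of 37 genes were tested in neonatal KO and 34 of 37 in adult KO. The Eno1 value is uncertain, since 1649 of its 1776 exon bases are shared with another gene model in the tables.

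**Figure D1:**
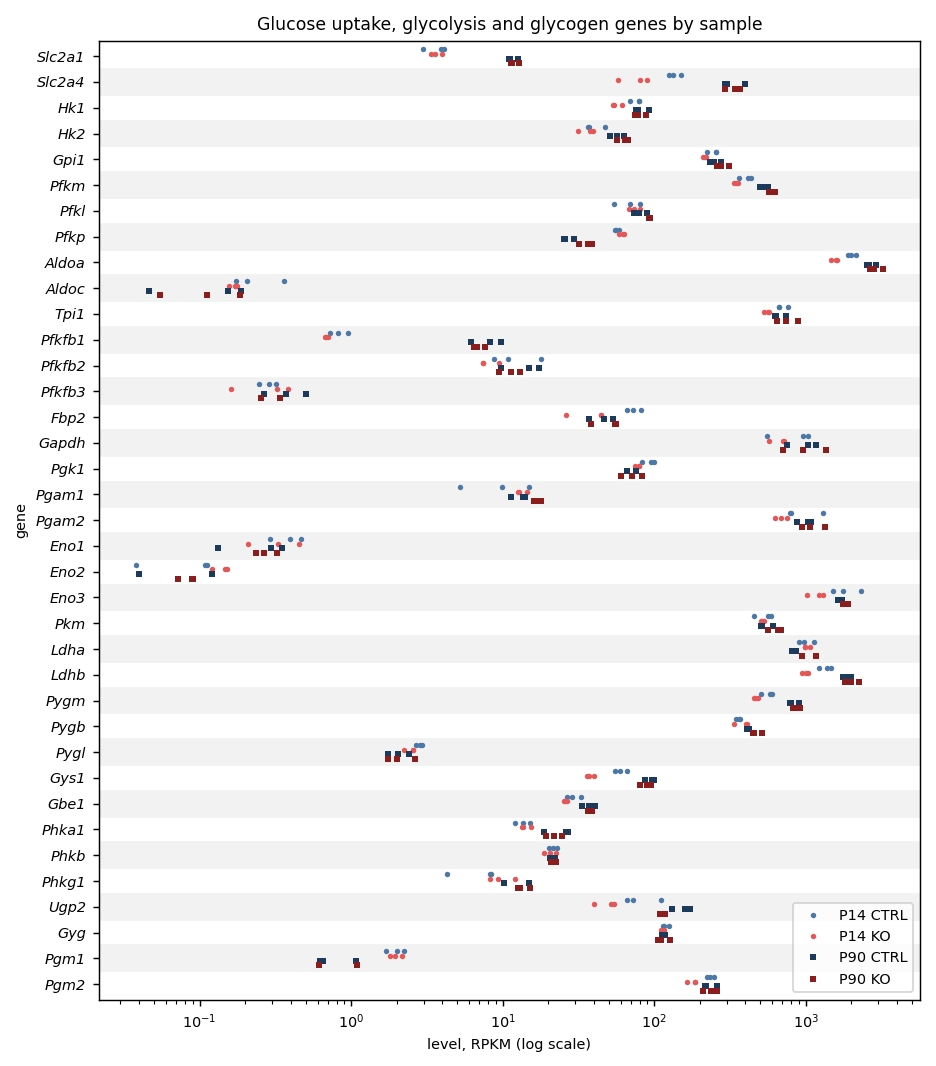
Level of each of the 37 genes in each sample, in RPKM on a log scale, with 3 points per group; a value of 0 (1 P90 CTRL sample of Eno2) cannot be drawn. By group mean Aldoa lies farthest to the right in every group, although the Eno3 point of P14 CTRL replicate 2 (2299 RPKM) lies beyond the Aldoa points of P14 CTRL. Aldoc, Eno1 and Eno2 lie below 0.5 RPKM.

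To ask what loss of Srf changed in these genes, KO was compared with CTRL at each stage by edgeR's quasi-likelihood F-test over all genes that passed the filter, with the Benjamini-Hochberg adjusted p under 0.05 as the threshold. In neonatal KO, 4 of the 35 genes fell and 0 rose. These were Slc2a4 (GLUT4), Hk1 (hexokinase 1), Fbp2 (muscle fructose bisphosphatase) and Gys1 (muscle glycogen synthase), which stand at separate points of the pathway. Of all 12546 genes tested, 4.6% fell and 3.99% rose. The log2 fold change was negative for 27 of the 35 genes and positive for 8, with a median of -0.20, or -0.18 without P14 CTRL replicate 2, against 0.00 over all genes. On CPM scaled within these 6 samples, all KO samples lay below all CTRL samples in 15 of the 35 genes, where 16.9% of all genes did, and above them in 1 gene, Pfkp, where 15.6% did. On the scale of the levels printed here, set over all 12 samples and compared after the data had been seen, 18 of the 35 lay wholly below, with Gpi1, Pfkm and Gbe1 in addition, where 16.9% of all genes did.

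The neonatal count depended on the test and on the samples. Deviations of same-numbered P14 samples correlated at 0.128, 0.122 and 0.444, but CTRL 1 with KO 2 gave 0.163 and CTRL 2 with KO 1 gave 0.140. Only replicate 3 thus stood out as a pair. With the replicate number as a block 7 of 35 genes fell, where 6.47% of all genes did: Eno3, Ldhb and Ugp2 passed in addition. DESeq2, the tool of the study, called 10 of 35 lower, where it called 8.21% of all genes lower, and added Aldoa, Tpi1 and Pgm2 to those 7. A single edgeR fit of all 12 samples called 9 of 35, when 2088 of 12841 genes were called. Leaving out P14 CTRL replicate 2 left 3 calls, with log2 fold changes of -0.76 for Slc2a4, -0.49 for Hk1 and -0.68 for Gys1, and Fbp2 at -0.85 (adjusted p = 0.0501 by edgeR). Leaving out P14 KO replicate 1, 2 or 3 left 0 calls each time, when 79, 21 and 56 of all genes fell, and the log2 fold changes of the 4 genes then lay between -0.40 and -1.06.

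The scaling of the libraries moved every value at P14. TMM factors were 1.12 to 1.20 in P14 KO and 0.946 to 1.02 in P14 CTRL. The summed CM markers were 67760 to 71990 CPM in P14 KO and 98960 to 103700 CPM in P14 CTRL. Of the 8 markers, 7 had a negative log2 fold change and 2 were lower by edgeR. Myh6 had means of 55870 CPM in P14 CTRL and 35520 CPM in P14 KO, and Myl3 of 10740 and 4254 CPM. Actn2 went the other way, at 5388 and 6510 CPM. The paper reports Myh6 and Myl3 as lower in neonatal KO, with strong SRF occupancy close to their promoters. The genes that respond to cell isolation, such as Fos and Atf3, summed to 291 to 541 CPM in P14 CTRL and 519.5 to 787 CPM in P14 KO, with all 8 log2 fold changes positive and 1, Atf3, higher by edgeR (1.17 ± 0.26, adjusted p = 0.0302). Macrophage markers summed to 4.44 to 7.51 CPM in P14 CTRL and 7.34 to 9.96 CPM in P14 KO, with all 4 tested positive, 2 without overlap and 0 called by edgeR. The part of these shifts in the results was not tested. When the libraries were scaled to their total counts instead, an alternative added after the data had been seen, the median log2 fold change of all genes was 0.22, and that of the listed genes 0.017. On that scale Slc2a4 (-0.63), Fbp2 (-0.73) and Gys1 (-0.46) still passed, and Hk1 did not (-0.23, adjusted p = 0.217 by edgeR). On CPM from total counts, 9 of the 35 genes lay wholly below CTRL, where 7.8% of all genes did, and 7 lay wholly above, where 32.1% did. The 37 genes together took 2.09% to 2.40% of all counts in P14 CTRL and 2.13% to 2.19% in P14 KO, ranges that overlap. In these bulk samples fewer cells of a type, less RNA per cell and a change in the marker genes themselves cannot be told apart.

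In adult KO, 0 of the 34 genes passed the threshold by edgeR, where 0.237% of all 11808 genes rose and 0.152% fell, while 4 had an unadjusted p under 0.05, as did 1910 of all genes, and DESeq2 called 1, Ugp2 (adjusted p = 0.00904), and 312 of all 10798 genes it tested. The log2 fold change was positive for 24 genes and negative for 10, with a median of 0.07 against 0.01 over all genes. KO lay wholly above CTRL in 7 genes (Pfkm, Pfkl, Pfkp, Pgam1, Eno3, Ldha and Pygb), where 10.8% of all genes did, and wholly below in 1, Ugp2, where 10.7% did. The 8 genes that respond to cell isolation, such as Fos and Atf3, summed to 1262 to 2067 CPM in P90 KO and 633 to 1075 CPM in P90 CTRL, with all 8 log2 fold changes positive, 7 at an unadjusted p under 0.05 and 0 called by edgeR. Their part in the adult values, and that of the lower CM marker sum in P90 KO, was not tested. Together the listed genes made up 2.62% to 2.84% of counts in the P90 KO libraries against 2.43% to 2.53% in the P90 CTRL libraries, which did not overlap.

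The difference between the neonatal and the adult effect was tested directly as an interaction over all 12 samples. It was negative, which means a lower log2 fold change of KO over CTRL in neonatal than in adult CMs, for 31 of 35 genes. The median was -0.28 against -0.01 over all genes. By edgeR 0 of the 35 genes passed, where 0.818% of all 12841 genes passed as positive and 0.958% as negative, while 13 had an unadjusted p under 0.05, as did 2440 of all genes. DESeq2 called 8, and 897 of all 10129 genes it tested. Without P14 CTRL replicate 2 the median was -0.18 and 0 passed by edgeR. With the libraries scaled to total counts the median was -0.10, beside 0.17 over all genes.

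Levels in CTRL CMs were compared between the stages, which cannot be told apart from the table, the handling and the sequencing. Of 35 genes tested, 11 were higher and 4 lower in P90 CTRL by edgeR, beside 14.5% and 14.9% of all 12294 genes. Without P14 CTRL replicate 2, 19 were called, the 15 among them, and the median log2 difference was 0.36, against 0.23 with it. The neonatal comparison and this one share the P14 CTRL samples. Endothelial markers were 181 to 232 CPM in P90 CTRL and 195 to 417 CPM in P14 CTRL, with 5 of 7 lower, and fibroblast markers 49.1 to 65.6 and 106 to 298 CPM, with 4 of the 6 tested lower. The isolation response genes summed to 633 to 1075 CPM in P90 CTRL and 291 to 541 CPM in P14 CTRL, with 4 of the 8 higher and 1 lower by edgeR. The part of these markers in the stage differences was not tested.

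**Figure D2:**
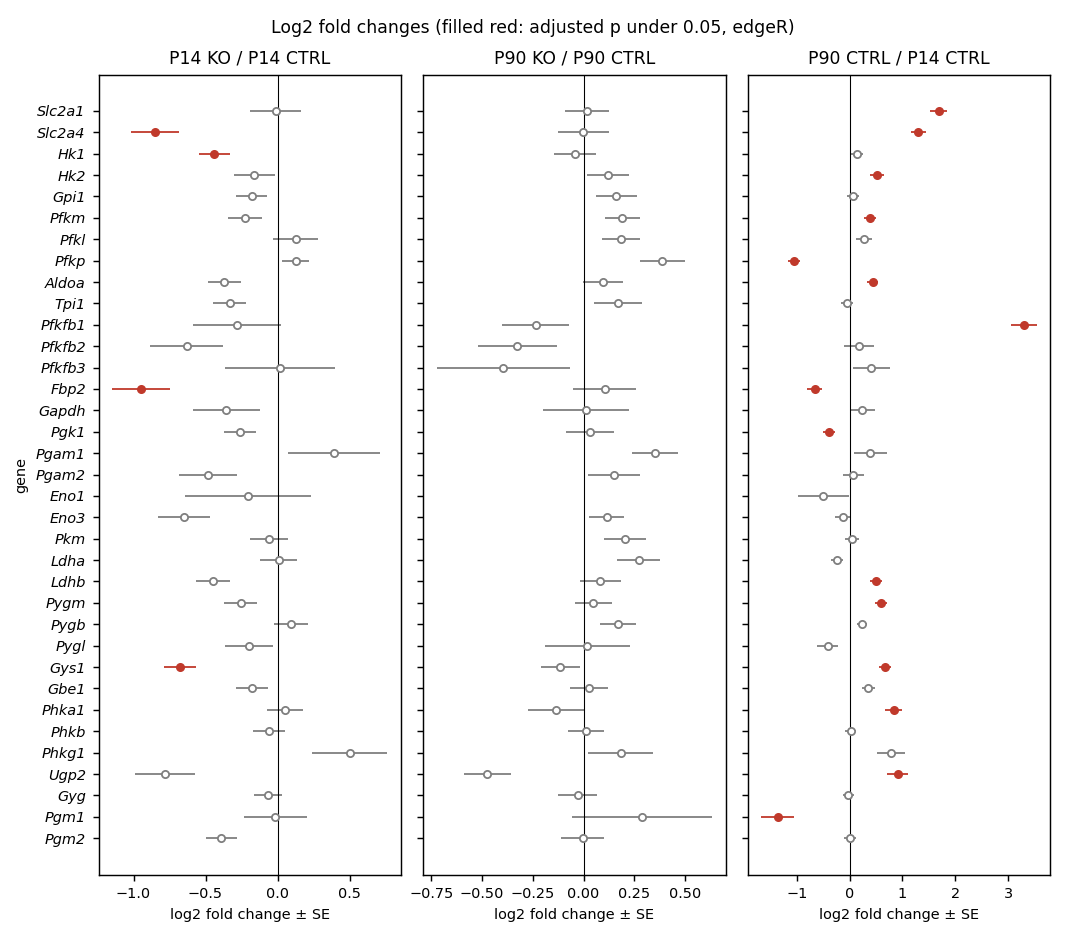
Log2 fold change ± SE by edgeR of each listed gene that was tested, in neonatal KO (left), adult KO (middle) and P90 against P14 CTRL (right), with filled red points for an adjusted p under 0.05 and a different axis range in each panel. The left panel holds 4 filled points, all below 0, the middle panel 0, and the right panel 15.

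The promoter windows of the neonatal calls are shown because Srf binds the CArG box (a CC, a run of A or T, and a GG). They let a reader see which of them hold that motif. Ldha was not called in neonatal KO, and its window, the only match to the CArG box, is shown beside them. RefSeq windows of 300 bases (GRCm38.p6, the coordinates of mm10) were matched for 36 of the 37 genes, all but Slc2a4, in 54 windows. The CArG box, CACGTG and the MEF2 motif were searched on both strands, and in the windows below none overlaps another. The windows are Fbp2 (chr13:62858351-62858650, minus strand), Gys1 (chr7:45434589-45434888, plus strand), the upstream of the Hk1 windows (chr10:62379859-62380158, minus strand) and the upstream of the Ldha windows (chr7:46845554-46845853, plus strand). Capitals mark a CArG box or CACGTG.
Fbp2: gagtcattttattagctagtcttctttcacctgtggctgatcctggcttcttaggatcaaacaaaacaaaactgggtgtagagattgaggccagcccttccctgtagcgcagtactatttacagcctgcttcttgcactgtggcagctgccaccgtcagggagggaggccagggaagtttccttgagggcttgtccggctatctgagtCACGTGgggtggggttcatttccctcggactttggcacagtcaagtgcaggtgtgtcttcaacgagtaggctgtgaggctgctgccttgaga
Gys1: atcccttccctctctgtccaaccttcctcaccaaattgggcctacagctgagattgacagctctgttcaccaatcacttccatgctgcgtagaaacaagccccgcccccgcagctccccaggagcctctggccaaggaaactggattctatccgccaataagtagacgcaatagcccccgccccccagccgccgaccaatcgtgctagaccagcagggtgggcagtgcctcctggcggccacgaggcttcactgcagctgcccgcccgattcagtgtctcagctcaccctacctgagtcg
Hk1: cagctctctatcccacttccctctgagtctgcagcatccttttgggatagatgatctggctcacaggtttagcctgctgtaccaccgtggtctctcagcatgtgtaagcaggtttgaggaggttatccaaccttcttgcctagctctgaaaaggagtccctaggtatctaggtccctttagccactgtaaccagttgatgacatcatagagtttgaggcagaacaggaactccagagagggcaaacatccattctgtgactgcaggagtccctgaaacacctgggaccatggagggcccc
Ldha: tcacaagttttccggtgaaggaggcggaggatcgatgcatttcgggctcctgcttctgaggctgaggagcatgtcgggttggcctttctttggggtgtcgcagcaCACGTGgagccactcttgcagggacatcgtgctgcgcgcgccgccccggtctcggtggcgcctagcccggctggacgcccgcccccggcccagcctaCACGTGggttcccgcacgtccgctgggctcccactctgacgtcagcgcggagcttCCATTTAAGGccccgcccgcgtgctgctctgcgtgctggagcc

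Ldha was the only gene of the 36 with a CArG box, in 1 of 54 windows, beside 1.63% of all 32851 promoter windows. CACGTG was held by 6 windows (Fbp2, Gyg, Ldha, Pfkfb2, Pfkfb3 and Pfkm), beside 7.15% of all windows, and the MEF2 motif by 2 (Pfkfb1 and Pgam2), beside 3.19%. The windows of Gys1 and Hk1 held none of the 3 motifs. These matches describe letters in the windows only.

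The glucose transporters were taken first. Slc2a4, on chromosome 11 at 69942286 to 69948190 (mm10, minus strand), encodes GLUT4, the transporter that insulin and contraction bring to the muscle surface. It was at 133, 151 and 124 RPKM in P14 CTRL and 80.7, 89.1 and 57.4 RPKM in P14 KO. The groups did not overlap, and neonatal KO kept 0.555 of the CTRL level, a log2 fold change of -0.85 ± 0.17 (SE, adjusted p = 0.0225 by edgeR). In adult CMs it was at 397, 295 and 302 RPKM in CTRL and 370, 339 and 293 RPKM in KO, and these overlapped throughout. The adult log2 fold change was -0.00 ± 0.12, and the difference between the stages was -0.84 ± 0.22 (adjusted p = 0.0721 by edgeR).

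Slc2a1 encodes GLUT1, the transporter that does not need insulin. It was at 3.93, 4.07 and 2.97 RPKM in P14 CTRL and 3.37, 3.95 and 3.59 RPKM in P14 KO, and at 12.6, 11.1 and 11.2 RPKM in P90 CTRL and 11.6, 11.3 and 12.7 RPKM in P90 KO. KO and CTRL overlapped at each stage, with log2 fold changes of -0.01 ± 0.18 and 0.02 ± 0.11. Both transporters were higher in P90 than in P14 CTRL, Slc2a1 by 1.68 ± 0.16 (adjusted p = 0.000223) and Slc2a4 by 1.30 ± 0.14 (adjusted p = 0.000376) on the log2 scale by edgeR.

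Among the enzymes from glucose to triose phosphate, Hk1 (chromosome 10, 62268855 to 62379908, minus strand) fell in neonatal KO. Hk1 is the constitutive hexokinase, and it was at 79.5, 69.6 and 78.9 RPKM in P14 CTRL and 53.3, 60.9 and 54.2 RPKM in P14 KO. The groups did not overlap, and the log2 fold change was -0.44 ± 0.11 (adjusted p = 0.0405 by edgeR). In adult KO it was -0.04 ± 0.10, with levels of 75.2 to 88.5 RPKM in KO and 76.3 to 92.7 RPKM in CTRL. Hk2, the insulin-responsive hexokinase, had log2 fold changes of -0.16 ± 0.14 and 0.12 ± 0.10 in neonatal and adult KO and was higher in P90 than in P14 CTRL by 0.52 ± 0.13 (adjusted p = 0.0188 by edgeR).

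The 3 phosphofructokinase genes did not behave as 1 group at P14. Pfkm, the muscle form, was at 360.2, 418 and 437 RPKM in P14 CTRL and 335, 347 and 359 RPKM in P14 KO. Pfkl, the liver form, was at 54.1, 68.7 and 80.4 RPKM in P14 CTRL and 68.0, 73.6 and 80.3 RPKM in P14 KO. Pfkp, the platelet form, was at 58.3, 55.2 and 55.6 RPKM in P14 CTRL and 58.8, 62.5 and 63.3 RPKM in P14 KO. KO lay above CTRL in every sample for Pfkp. For Pfkm the lowest CTRL sample was just above the highest KO sample on this scale, and the groups overlapped when scaled within the 6 samples. Pfkl overlapped, and none of the 3 passed the threshold by edgeR: the log2 fold changes were -0.23 ± 0.12 for Pfkm, 0.13 ± 0.16 for Pfkl and 0.13 ± 0.10 for Pfkp. In adult KO they were 0.19 ± 0.09, 0.18 ± 0.09 and 0.39 ± 0.11, with KO wholly above CTRL for each, and the adjusted p of Pfkp was 0.141 by edgeR. Between the stages Pfkp was lower in P90 CTRL by 1.05 on the log2 scale (adjusted p = 0.000388 by edgeR) and Pfkm was higher by 0.39 ± 0.11 (adjusted p = 0.0299 by edgeR). Exons of Pfkp share 276 of 3986 bases with the antisense gene Pitrm1, and whether strand was used in counting is not stated.

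Aldoa was at 1912, 2133 and 1977 RPKM in P14 CTRL and 1595, 1612 and 1464 RPKM in P14 KO, and Tpi1 (triose phosphate isomerase) at 663, 768 and 662 RPKM and 563, 572 and 529 RPKM. All KO samples lay below all CTRL samples, with log2 fold changes of -0.37 ± 0.12 for Aldoa (adjusted p = 0.0871 by edgeR) and -0.33 ± 0.11 for Tpi1 (adjusted p = 0.111 by edgeR), neither past the threshold. In adult KO the values were 0.10 ± 0.10 and 0.17 ± 0.12. Gpi1 (glucose phosphate isomerase) had -0.18 ± 0.11 and 0.16 ± 0.10. Aldoa was higher in P90 than in P14 CTRL by 0.44 ± 0.10 (adjusted p = 0.0127 by edgeR).

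Fructose bisphosphate is removed by Fbp2, the bisphosphatase of muscle, and its formation is set by the PFKFB enzymes, which make and break the activator fructose 2,6-bisphosphate. Fbp2 (chromosome 13, 62836885 to 62858370, minus strand) was at 72.7, 82.0 and 65.7 RPKM in P14 CTRL and 44.2, 44.5 and 26.1 RPKM in P14 KO. The groups did not overlap, and it had the lowest log2 fold change of the 35 genes, -0.95 ± 0.20 (adjusted p = 0.0270 by edgeR), or 0.519 of the CTRL level. In adult CMs it was at 53.3, 46.8 and 37.2 RPKM in CTRL and 55.0, 55.6 and 38.4 RPKM in KO, which overlapped, with a log2 fold change of 0.10 ± 0.16. The difference between the stages was -1.04 ± 0.28 (adjusted p = 0.0763 by edgeR). In CTRL, Fbp2 was lower at P90 than at P14 by 0.66 on the log2 scale (adjusted p = 0.0106 by edgeR).

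The 3 PFKFB genes did not pass in KO at either stage. Pfkfb2, the heart form, was at 10.8, 18.0 and 8.71 RPKM in P14 CTRL and 9.39, 7.46 and 7.45 RPKM in P14 KO, which overlapped, with a log2 fold change of -0.63 ± 0.25. Pfkfb3 stayed between 0.161 and 0.50 RPKM in all samples. Pfkfb1, best known from liver and skeletal muscle, was at 0.823, 0.724 and 0.955 RPKM in P14 CTRL and 9.80, 6.14 and 8.29 RPKM in P90 CTRL. These groups lay far apart, and the log2 difference of 3.30 ± 0.25 (adjusted p = 6.37e-05 by edgeR) was the highest of the 35 genes between the stages.

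Of the 9 tested enzymes from triose phosphate to lactate, 7 had a negative log2 fold change in neonatal KO, as did 6254 of all 12546 genes. All 8 tested in adult KO had a positive one, as did 6027 of all 11808 genes. By edgeR 0 were called in either, and 4 and 2 had an unadjusted p under 0.05, as did 3206 and 1910 of all genes. Eno3, which makes phosphoenolpyruvate in muscle, was at 1511, 2299 and 1759 RPKM in P14 CTRL and 1225, 1308 and 1025 RPKM in P14 KO. Ldhb, whose subunit favours the use of lactate, was at 1223, 1458 and 1378 RPKM in P14 CTRL and 950.3, 1032 and 997 RPKM in P14 KO. Neither overlapped, and their log2 fold changes were -0.65 ± 0.18 (adjusted p = 0.0605 by edgeR) for Eno3 and -0.45 ± 0.12 (adjusted p = 0.0526 by edgeR) for Ldhb. With the replicate number as a block their adjusted p was 0.0407 and 0.0475 by edgeR. Without P14 CTRL replicate 2, the highest CTRL sample in both, the log2 fold changes were -0.46 and -0.38. In adult KO they were 0.11 ± 0.09 and 0.08 ± 0.10.

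Ldha, whose subunit favours the formation of lactate, was at 906, 1137 and 978 RPKM in P14 CTRL and 983, 1068 and 990 RPKM in P14 KO. These overlapped, with a log2 fold change of 0.01 ± 0.13. In adult CMs it was at 848, 856 and 811 RPKM in CTRL and 1171, 951 and 944 RPKM in KO, wholly above CTRL, with 0.27 ± 0.10 (adjusted p = 0.238 by edgeR). Pgam2, the muscle phosphoglycerate mutase, was at 796, 1298 and 785 RPKM in P14 CTRL and 684, 753 and 630 RPKM in P14 KO, and Pgam1, the form of most tissues, at 9.93, 15.0 and 5.22 RPKM and 12.6, 12.8 and 14.4 RPKM. The log2 fold changes were -0.48 ± 0.20 (adjusted p = 0.182 by edgeR) for Pgam2 and 0.39 ± 0.32 for Pgam1.

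Gapdh, often taken as a constant reference gene, spanned 554 to 1042 RPKM over the 3 P14 CTRL samples and 573 to 722 RPKM in P14 KO, and 708 to 1366 RPKM over the 3 P90 KO samples. Its log2 fold changes were -0.35 ± 0.23 and 0.01 ± 0.21. Pkm (pyruvate kinase), at 453 to 688 RPKM in all 12 samples, had -0.06 ± 0.13 and 0.20 ± 0.10. Pgk1 (phosphoglycerate kinase) had -0.26 ± 0.11 and 0.03 ± 0.12 and was lower in P90 than in P14 CTRL by 0.40 on the log2 scale (adjusted p = 0.0283 by edgeR), while Ldhb was higher by 0.50 ± 0.11 (adjusted p = 0.00944 by edgeR). Gapdh, Ldha, Pgk1, Pgam1 and Tpi1 have near-identical processed copies in the genome, and how reads that match several places were counted is not stated.

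The glycogen genes included the neonatal call with the lowest adjusted p. Gys1 (chromosome 7, 45434839 to 45456617, plus strand) encodes the glycogen synthase of muscle, which adds glucose units to glycogen. It was at 55.2, 59.6 and 66.4 RPKM in P14 CTRL and 40.3, 36.99 and 36.1 RPKM in P14 KO. The groups did not overlap, and the log2 fold change was -0.68 ± 0.11 (adjusted p = 0.0153 by edgeR), or 0.625 of the CTRL level. In adult CMs it was at 100.3, 87.0 and 96.7 RPKM in CTRL and 94.9, 89.5 and 80.5 RPKM in KO, which overlapped, with -0.11 ± 0.10. The difference between the stages was -0.56 ± 0.14 (adjusted p = 0.0618 by edgeR).

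Ugp2 encodes the enzyme that makes UDP-glucose, the donor for glycogen synthase. It was at 73.0, 111 and 66.2 RPKM in P14 CTRL and 51.5, 54.1 and 40.0 RPKM in P14 KO, with a log2 fold change of -0.78 ± 0.21 (adjusted p = 0.0549 by edgeR), 0.0205 with the block by edgeR and -0.52 without P14 CTRL replicate 2. In adult CMs it was at 132, 159 and 172 RPKM in CTRL and 109, 110.4 and 117 RPKM in KO, with -0.47 ± 0.11 (adjusted p = 0.0975 by edgeR). KO lay wholly below CTRL at both stages, and the difference between the stages was -0.30 ± 0.25 (adjusted p = 0.571 by edgeR). Ugp2 was the only listed gene below CTRL without overlap at both stages.

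The gene that the tables call Pgm2 lies on chromosome 4 and is named Pgm1 in RefSeq, and the reverse holds for the one on chromosome 5, so both are given by chromosome. The chromosome 4 gene, which interconverts glucose 1- and 6-phosphate, was at 223, 249.8 and 232 RPKM in P14 CTRL and 186, 187 and 165 RPKM in P14 KO, with -0.39 ± 0.11 (adjusted p = 0.0618 by edgeR), and -0.00 ± 0.11 in adult KO. The chromosome 5 gene was near 2 RPKM at P14 and was lower in P90 than in P14 CTRL by 1.36 on the log2 scale (adjusted p = 0.0115 by edgeR).

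Of the phosphorylases, which release glucose from glycogen, Pygm (muscle) was at 504, 579 and 594 RPKM in P14 CTRL and 484, 466 and 456 RPKM in P14 KO, and Pygb (brain) at 366, 360.3 and 348 RPKM and 410, 401 and 335 RPKM. Only Pygm did not overlap, and neither passed, with log2 fold changes of -0.26 ± 0.12 and 0.09 ± 0.12. In adult KO they had 0.05 ± 0.09 and 0.17 ± 0.09. Gbe1 (branching enzyme) and Gyg (glycogenin, the primer) had -0.18 ± 0.11 and -0.07 ± 0.10 in neonatal KO and 0.03 ± 0.10 and -0.03 ± 0.10 in adult KO. The phosphorylase kinase genes Phka1, Phkb and Phkg1 had between -0.06 and 0.50 in neonatal and between -0.14 and 0.18 in adult KO, and none passed; 517 of 2360 exon bases of Phkg1 are shared with Sumf2. In CTRL, Gys1 (0.67), Ugp2 (0.91), Pygm (0.59) and Phka1 (0.83) were higher at P90 on the log2 scale, with adjusted p between 0.00324 and 0.00949 by edgeR.

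**Figure D3:**
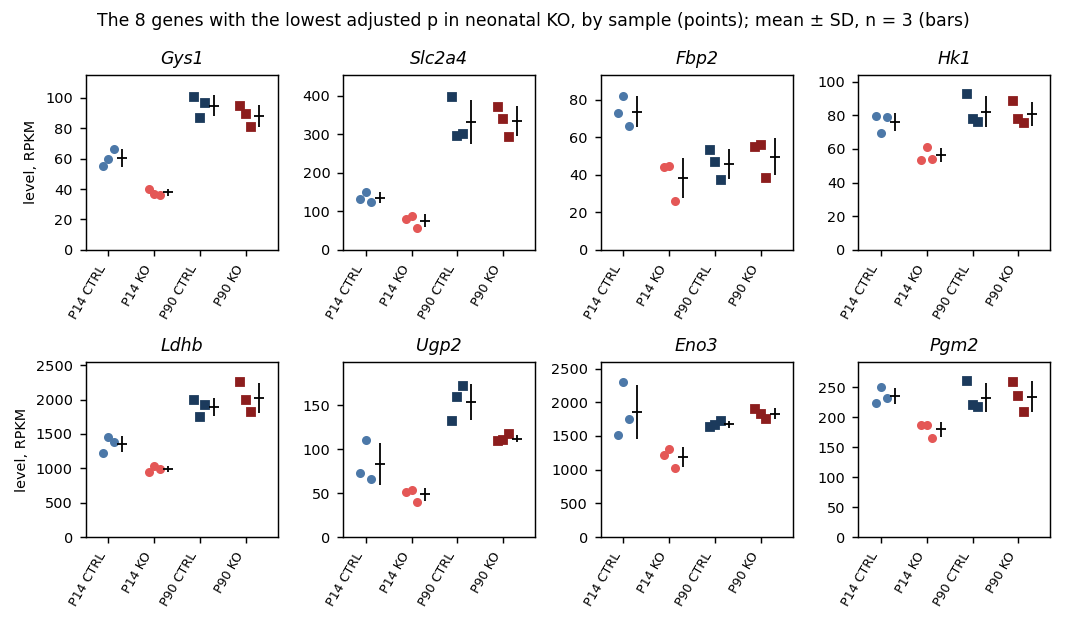
Level in RPKM of the 8 listed genes with the lowest adjusted p in neonatal KO, in each sample (points), with mean ± SD (bars, n = 3). P14 KO lies wholly below P14 CTRL in all 8 panels, whereas P90 KO and P90 CTRL do not overlap for Ugp2 and Eno3.

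Isozyme use was compared as the log2 ratio of 2 genes within each sample, which does not depend on how libraries are scaled. For 6 of the 10 pairs the neonatal KO samples lay wholly above CTRL, and for 0 wholly below, so the form typical of muscle or heart was in each case lower relative to its partner. Pfkl/Pfkm and Pfkp/Pfkm share Pfkm and are not separate observations. The pairs were chosen with earlier results of these data known. How often other gene pairs lay apart was not computed, so the 6 of 10 cannot be set against a background share. Among single genes, which are a different measure, 15.6% lay wholly above CTRL in neonatal KO and 16.9% wholly below. With 3 samples against 3, the exact two-sided permutation test cannot go below p = 0.1, which each of the 6 had, or 0.167 after adjustment over the 10 pairs. In adult KO 0 of 10 pairs were free of overlap, or 5 when P90 KO replicate 1 was left out. Of those, Pfkp/Pfkm, Pgam1/Pgam2 and Pygb/Pygm lay above CTRL, and Hk1/Hk2 and Pfkfb3/Pfkfb2 below. Without P14 CTRL replicate 2, 7 pairs were free of overlap in neonatal KO. The added pair was Hk1/Hk2, which went the other way, with KO (0.43, 0.69 and 0.79) wholly below the remaining CTRL samples (1.12 and 1.08).

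Ldha/Ldhb was at -0.43, -0.36 and -0.49 in P14 CTRL and 0.05, 0.05 and -0.01 in P14 KO, a difference of 0.46 that was wide beside the spread of either group. Ldhb made up 57.4% ± 1.15 of the LDH level in P14 CTRL and 49.5% ± 0.605 in P14 KO (SD, n = 3). In adult CMs it made up 69.2% ± 1.82 in CTRL and 66.5% ± 1.08 in KO, which overlapped. Between the stages Ldha/Ldhb was lower in P90 CTRL by 0.74 on the log2 scale, with no overlap.

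Pfkl/Pfkm was at -2.74, -2.61 and -2.44 in P14 CTRL and -2.30, -2.24 and -2.16 in P14 KO, and Pfkp/Pfkm at -2.63, -2.92 and -2.97 and -2.51, -2.47 and -2.50. The muscle form Pfkm accounted for 76.5% ± 0.526 of phosphofructokinase level in P14 CTRL, 71.9% ± 0.550 in P14 KO, 82.9% ± 0.442 in P90 CTRL and 82.4% ± 0.927 in P90 KO. The 2 neonatal groups were clearly apart in that share, and the adult groups overlapped. Pfkp/Pfkm was lower in P90 CTRL than in P14 CTRL by 1.44 on the log2 scale.

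Slc2a1/Slc2a4 was at -5.08, -5.21 and -5.38 in P14 CTRL and -4.58, -4.49 and -4.00 in P14 KO, a difference of 0.87, against 0.02 in adult KO. Slc2a4 remained by far the main transporter mRNA, at 97.4% ± 0.267 of the pair in P14 CTRL and 95.3% ± 1.02 in P14 KO. Pgam1/Pgam2 was at -6.32, -6.43 and -7.23 in P14 CTRL and -5.76, -5.88 and -5.45 in P14 KO, with Pgam2 above 97% of the pair in every sample. Pygb/Pygm was at -0.46, -0.68 and -0.77 in P14 CTRL and -0.24, -0.22 and -0.44 in P14 KO, the narrowest separation of the 6, and Pygm made up 60.7% ± 2.66 and 55.0% ± 2.12 of the phosphorylase level.

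Whether a ratio moved differently at the 2 stages was tested by permuting KO and CTRL within each stage. Pfkl/Pfkm had an exact permutation p of 0.045 and Slc2a1/Slc2a4 of 0.055, both 0.275 after adjustment over the 10 pairs, so none passed. The remaining pairs, Hk1/Hk2, Pfkfb3/Pfkfb2, Aldoc/Aldoa and Eno1/Eno3, overlapped between KO and CTRL at both stages. In CTRL, Slc2a1/Slc2a4 and Pgam1/Pgam2 were higher at P90 by 0.40 and 0.41, and Pygb/Pygm was lower by 0.37 on the log2 scale, none with overlap and each at the smallest p of 0.1 by exact permutation. Pfkfb1 made up 6.79% ± 2.92 of the PFKFB level in P14 CTRL and 36.8% ± 12.0 in P90 CTRL.

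**Figure D4:**
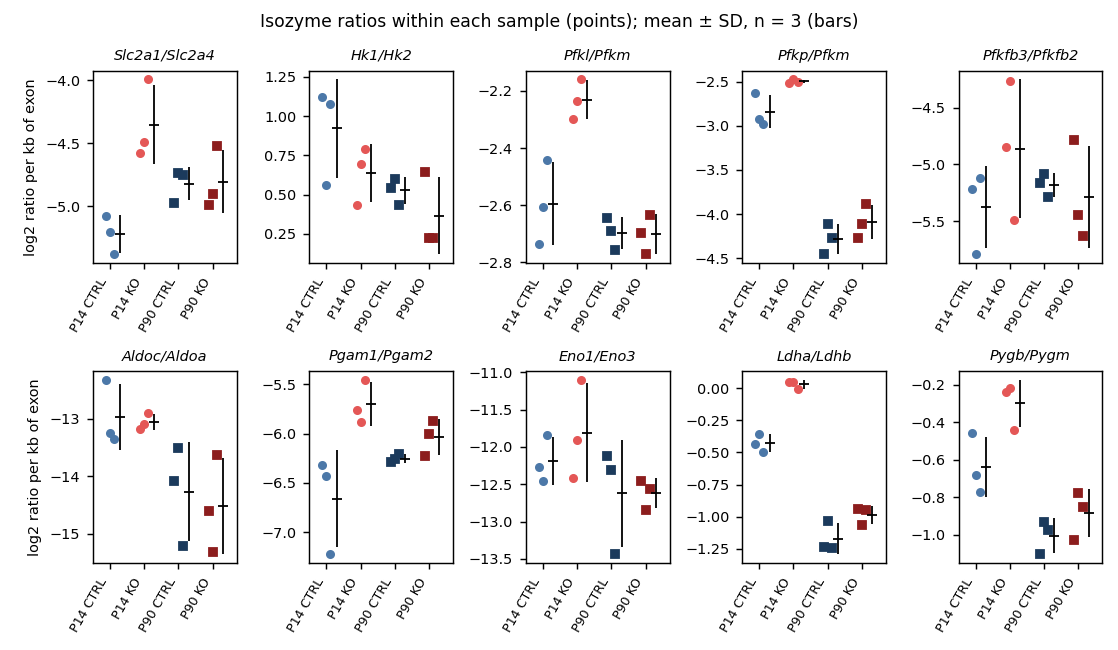
Log2 ratio per kb of exon of the 2 genes of each isozyme pair, in each sample (points), with mean ± SD (bars, n = 3) and a different axis range in each panel. P14 KO lies wholly above P14 CTRL for Slc2a1/Slc2a4, Pfkl/Pfkm, Pfkp/Pfkm, Pgam1/Pgam2, Ldha/Ldhb and Pygb/Pygm, while P90 KO overlaps P90 CTRL in all 10 panels.

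**Figure D5:**
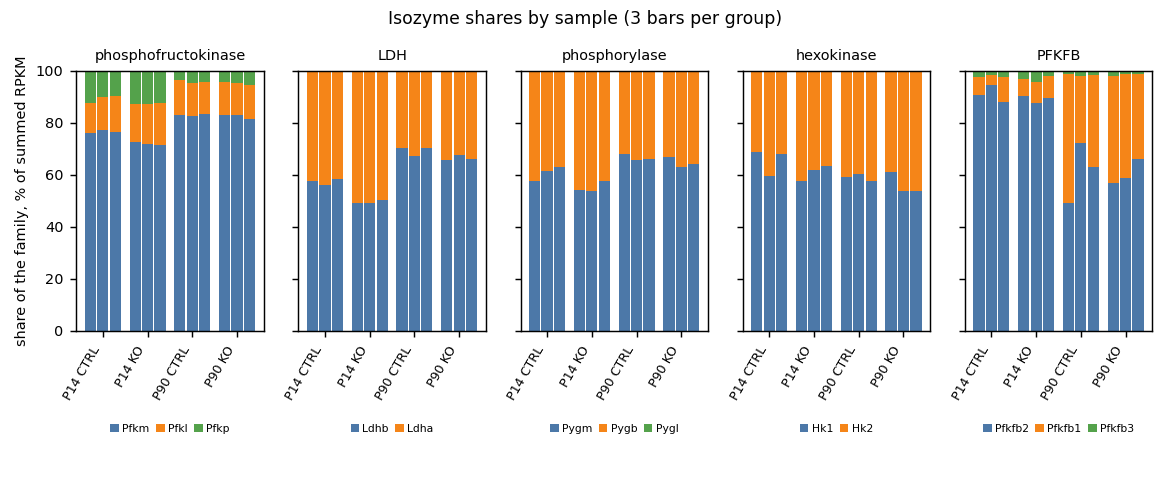
Share of each gene in the summed RPKM of its isozyme family, in percent, for 5 families with 1 bar per sample. The Ldhb bars stand at 49.1% to 50.2% in P14 KO and 56.2% to 58.5% in P14 CTRL, and the Pfkfb1 part widens from P14 to P90.

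Other genes of glucose and glycogen metabolism outside the list were counted in the same fits. Of 32 tested in neonatal KO, 2 rose and 1 fell by edgeR, beside 3.99% and 4.6% of all genes. Slc16a3, the lactate exporter MCT4, was at 1.89, 2.19 and 1.88 CPM in P14 CTRL and 5.26, 6.43 and 6.67 CPM in P14 KO, wholly apart, with a log2 fold change of 1.62 ± 0.23 (adjusted p = 0.0108 by edgeR) and an adult value of 0.47 ± 0.31. Slc16a1, which encodes the related transporter MCT1, was far more abundant and went the other way. It was at 630, 569 and 480 CPM in P14 CTRL and 473, 460 and 395 CPM in P14 KO, with -0.34 ± 0.13 (adjusted p = 0.152 by edgeR). Minpp1, an inositol polyphosphate phosphatase, rose by 0.48 ± 0.11 (adjusted p = 0.0343 by edgeR), and Nhlrc1, which encodes the ubiquitin ligase malin, fell by 0.67 on the log2 scale (adjusted p = 0.0483 by edgeR). Of 31 tested in adult KO, 0 rose and 2 fell, beside 0.237% and 0.152% of all genes. Stbd1, which tethers glycogen to membranes, fell by 0.89, and Ppp1r3a, the glycogen-targeting subunit of protein phosphatase 1 in muscle, fell by 0.50 on the log2 scale (adjusted p = 0.0454 each by edgeR). Both were also negative in neonatal KO. Stbd1 had -0.73 ± 0.19 (adjusted p = 0.0541 by edgeR), with KO wholly below CTRL, and Ppp1r3a had -0.43 ± 0.20 (adjusted p = 0.230 by edgeR), with overlap. Of 19 regulators of glucose uptake, 0 rose and 1 fell in neonatal KO, beside 3.99% and 4.6% of all genes. This was Mlxipl (the glucose sensor ChREBP), lower by 0.84 on the log2 scale (adjusted p = 0.0354 by edgeR). In adult KO 0 of 19 passed, and 5 had an unadjusted p under 0.05, as did 1910 of all 11808 genes.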

How the data were processed

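RNA of sorted CMs was measured in 12 samples, grouped by their titles. As the labels and the paper's methods describe, 10 ng RNA was amplified with SMART-Seq v4, and reads were aligned by the authors to mm10 with STAR 2.5.3a and counted with featureCounts (Subread 1.5.2). The authors deposited raw counts per gene in 1 table per stage, with exon coordinates. Strand setting and multi-mapped reads are not stated, and reads carry no molecular identifiers, so floors cover counting error only.

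The tests used edgeR 4.0.16 under R 4.3.3 (filterByExpr, TMM, quasi-likelihood F-test, Benjamini-Hochberg over all genes). The study used DESeq2, run here as version 1.42.0 and as an alternative. RPKM and CPM were computed from the deposited counts with TMM factors over all 12 samples. Isozyme ratios used a pseudocount of 0.5 counts and exact permutation tests. The tests were first run on simulated data. The paper gives 3 hearts for this measurement. Same-numbered P14 samples correlated in their deviations from the group means at 0.128, 0.122 and 0.444, above the 0.1 taken as pairing, though CTRL 1 with KO 2 gave 0.163 and CTRL 2 with KO 1 0.140. The P90 values were 0.249, 0.0101 and 0.0687, which do not pair.

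The listed genes, the other lists and the tests were chosen with earlier results of these data known. Values by sample are given for genes past an adjusted p of 0.05 in a KO comparison, for both genes of an isozyme pair without overlap, and, chosen after their values were seen, for Aldoa, Tpi1, Eno3, Ugp2, Pgm2 and Pfkfb1 and Pfkfb2. Genes of other lists are named only past the same threshold, except Slc16a1, which is set beside Slc16a3.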

Additional observations from a re-analysis of the deposited data

Results flagged for a closer look

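Egln3, a prolyl hydroxylase induced by hypoxia and listed among the hypoxia-induced genes outside glycolysis, changed differently at the 2 stages. It was at 63.9, 101 and 84.1 CPM in P14 CTRL and 33.3, 40.8 and 28.2 CPM in P14 KO, and at 90.8, 93.3 and 85.3 CPM in P90 CTRL and 86.3, 96.2 and 91.5 CPM in P90 KO. The neonatal groups did not overlap and the adult groups did. The highest P14 CTRL value was that of replicate 2, and the fits below include that sample. The log2 fold change was -1.29 ± 0.19 (SE, adjusted p = 0.0121 by edgeR) in neonatal and 0.01 ± 0.09 in adult KO, and the interaction, neonatal minus adult, was -1.285 ± 0.22 (adjusted p = 0.0210 by edgeR over 12841 genes).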

How the results depend on the processing

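No result past the threshold changed sign. Neonatal calls numbered 4 of 35 by edgeR, 10 by DESeq2, 7 with the replicate block and 9 in a fit of all 12 samples (of 2088 among all genes), and 0 to 4 with 1 sample left out. Adult calls numbered 0, but 1 by DESeq2 (of 312 among all genes), 2 without a filter on low counts (of 701), and 2 with the block (of 655) or with the block and the gene length trend removed (of 202); the block called Pfkp higher (adjusted p = 0.0302 by edgeR) and Ugp2 lower (0.00979 by edgeR). Interaction calls numbered 0, but 8 by DESeq2 (of 897), 3 without the filter (of 474), 3 with the block (Slc2a4, Fbp2 and Eno3, of 687), 1 with the length trend removed (of 149), 2 with both (of 293), and 0 to 3 with 1 sample left out. Total-count scaling moved the median log2 fold change of the listed genes to 0.017 in neonatal KO and -0.10 in the interaction. With 1 sample left out, that median ranged from -0.30 to -0.18 in neonatal KO, 0.02 to 0.11 in adult KO, 0.15 to 0.36 between CTRL stages and -0.36 to -0.18 in the interaction, and 10 to 19 genes were called between CTRL stages. Adult isozyme pairs without overlap numbered 0 to 5 with 1 sample left out, 5 without P90 KO replicate 1, and 3 pairs had same-numbered (replicate block) differences of 1 sign. The cause of these changes was not tested. RLE size factors moved none of these counts by over 1.5 times. Aldoc and Eno2 had few counts in every sample, so their values are limited by depth.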

Other observations

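Of 13 genes of the pentose phosphate and hexosamine branches tested in neonatal KO, 1 rose and 1 fell by edgeR, beside 3.99% and 4.6% of all genes. Tkt (transketolase) was at 14.3, 15.1 and 12.2 CPM in P14 CTRL and 22.3, 26.0 and 17.9 CPM in P14 KO, a log2 fold change of 0.66 ± 0.17 (adjusted p = 0.0451 by edgeR). Sord (sorbitol dehydrogenase) was at 96.7, 95.4 and 116 CPM in P14 CTRL and 75.6, 59.6 and 61.2 CPM in P14 KO, with -0.65 ± 0.14 (adjusted p = 0.0256 by edgeR). Neither overlapped. In adult KO 0 of 13 passed by edgeR, and 1 had an unadjusted p under 0.05, as did 1910 of all 11808 genes.

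Of the 15 hypoxia-induced genes outside glycolysis that were tested, 0 rose and 1 fell in neonatal KO, and 1 rose and 0 fell in adult KO. Of all genes, 3.99% rose and 4.6% fell in neonatal KO, and 0.237% rose and 0.152% fell in adult KO. The adult gene was Ddit4, an inhibitor of mTORC1 induced by many stresses, at 15.5, 17.4 and 20.3 CPM in P90 CTRL and 34.5, 37.8 and 37.9 CPM in P90 KO, wholly apart, with a log2 fold change of 1.04 ± 0.13 (adjusted p = 0.00755 by edgeR).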
